A study of Homo sapiens with 8 samples.

Results

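The genes examined were the insulin-like growth factors IGF1 and IGF2, the receptor IGF1R and the IGF-binding proteins IGFBP1 to IGFBP7, 10 of the 20163 protein-coding genes in the annotation. They were taken as a family and not by a cutoff on any value, but earlier results of these data were known when they were chosen. For each gene, every peak whose summit lay in the gene body or within 50 kb of it was collected from 8 lists of open chromatin, and overlapping peaks of different libraries were merged. This gave 476 peaks of 466883, in 95 merged regions, of which 77 had a peak in at least 2 libraries and are called sites here, out of 75501 sites in the genome. A further 18 regions had a peak in 1 library.

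ATAC-seq maps open chromatin through the places where a transposase can insert sequencing adapters. It was run on LX-2, 1 immortalized hepatic stellate cell line of human origin, seeded on fibronectin-coated polyacrylamide gels that were soft (about 2 kPa) or stiff (about 40 kPa), to learn how matrix stiffness changes accessible chromatin. Cells were collected after 2 days (D2 soft and D2 stiff) or after 4 days (D4 soft and D4 stiff), with 2 libraries per group and no other treatment or genetic change named in the labels. The study's methods call its sequencing replicates biological, and the labels do not say what separated them.

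IGF1 and IGF2 are secreted growth factors that signal mainly through the receptor tyrosine kinase IGF1R to the PI3K–AKT and MAPK pathways. The IGF-binding proteins hold most of the circulating and tissue IGF, extend its lifetime or keep it from the receptor, and several also act on cells without IGF. In liver, hepatocytes are the main source of circulating IGF1 and of IGFBP1, whereas stellate cells and myofibroblasts make several of the other binding proteins, among them IGFBP3, IGFBP5 and IGFBP7.

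Each site was named by the nearest of the 10 genes and by the distance of its summit from that gene's main annotated start, with plus for downstream. The sequences below are the 201 bases centred on the best summit of 7 sites on which the results turn, read from the plus strand of hg19. Capitals mark matches on either strand to TGAGTCA or TGACTCA (the AP-1 motif), GGAATG (TEAD) and GGGCGG (the GC box). They are the IGFBP3 promoter, the strongest distal sites near IGFBP1 and IGFBP3, IGFBP4, IGFBP7 and IGF1R, the IGFBP4 promoter site found on the stiff matrix alone, and the intronic site of IGF1 found on day 4 alone.
IGFBP3 +0.3 kb (chr7:45960430-45960630): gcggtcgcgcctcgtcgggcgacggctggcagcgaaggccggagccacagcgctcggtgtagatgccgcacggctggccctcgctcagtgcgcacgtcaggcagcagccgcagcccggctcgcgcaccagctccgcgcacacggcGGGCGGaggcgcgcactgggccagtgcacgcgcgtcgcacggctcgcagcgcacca
IGFBP1 -13.6 kb (chr7:45914404-45914604): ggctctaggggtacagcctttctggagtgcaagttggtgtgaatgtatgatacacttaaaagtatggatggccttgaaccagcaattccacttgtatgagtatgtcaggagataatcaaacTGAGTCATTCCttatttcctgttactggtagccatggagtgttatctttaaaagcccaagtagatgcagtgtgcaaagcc
IGFBP4 +0.4 kb (chr17:38599975-38600175): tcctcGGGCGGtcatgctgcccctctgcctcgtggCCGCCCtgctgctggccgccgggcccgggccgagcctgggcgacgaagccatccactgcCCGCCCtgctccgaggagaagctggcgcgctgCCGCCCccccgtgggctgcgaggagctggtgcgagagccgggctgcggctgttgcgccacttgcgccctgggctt
IGFBP4 +42.7 kb (chr17:38642349-38642549): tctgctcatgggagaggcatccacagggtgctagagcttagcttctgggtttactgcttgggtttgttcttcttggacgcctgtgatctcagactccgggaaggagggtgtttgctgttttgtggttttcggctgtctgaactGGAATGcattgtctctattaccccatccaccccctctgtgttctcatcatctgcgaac
IGFBP7 +28.8 kb (chr4:57947604-57947804): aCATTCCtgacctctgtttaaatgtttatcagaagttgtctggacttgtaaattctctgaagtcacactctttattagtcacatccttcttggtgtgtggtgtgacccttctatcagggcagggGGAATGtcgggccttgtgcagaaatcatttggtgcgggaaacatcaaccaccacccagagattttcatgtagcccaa
IGF1R +79.2 kb (chr15:99270868-99271068): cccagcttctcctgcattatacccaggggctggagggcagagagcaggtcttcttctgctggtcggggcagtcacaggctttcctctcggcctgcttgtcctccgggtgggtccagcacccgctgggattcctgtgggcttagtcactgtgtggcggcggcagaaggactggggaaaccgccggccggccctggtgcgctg
IGF1 +42.0 kb (chr12:102832213-102832413): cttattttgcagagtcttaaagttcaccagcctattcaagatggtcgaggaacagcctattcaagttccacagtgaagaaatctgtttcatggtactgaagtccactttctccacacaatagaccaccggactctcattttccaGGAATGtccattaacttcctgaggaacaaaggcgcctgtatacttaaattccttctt

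The IGFBP3 window lay wholly in coding sequence and the IGFBP4 +0.4 kb window had 188 of its 201 bases in coding sequence, with GC contents of 76.6% and 76.1%. The other 5 windows overlapped no annotated exon. IGFBP4 +0.4 kb held 4 GC boxes. IGFBP1 -13.6 kb held an AP-1 and a TEAD motif that overlapped by 2 bases. The strong site IGF1R +79.2 kb held none of the 3 motifs. Over all 77 sites, AP-1 was found in 29.9% against 30.2% of all sites of the genome in the same 201-base window, the GC box in 16.9% against 16.0% and TEAD in 28.6% (22 sites) against 19.1%. These are counts of letters, with no test, and a match is not evidence of binding.

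The lists held 29789 to 72840 peaks, and the estimated depth was 0.780 to 3.15 fragments per kb of genome. D2 soft replicate 1 stood apart at the low end of both, and on each day both stiff lists were longer than both soft lists, so a missing peak is weaker evidence in the soft libraries. The cells were labelled stellate. Of 15 stellate or mesenchymal marker genes 7 had a promoter peak in every library, among them PDGFRB, COL1A1, ACTA2 and TIMP1. A further 7 had one in some libraries, with COL3A1 and LRAT in 1 library each, and DES had none. The 7 of 15 were close to the 46.0% of all protein-coding genes with such a peak, so the count did not set these markers apart. Of 8 hepatocyte markers 0 had one in every library and 5, including ALB and HNF4A, had none in any, where 27.7% of all protein-coding genes had none. Of the macrophage or leukocyte markers, CD68 and CD14 had one in every library, CSF1R in 7, and PTPRC, CD163 and CD3E in none. Of the biliary or epithelial markers, KRT7 had one in every library, SOX9 in 7, EPCAM in 6, CDH1 in 5 and KRT19 in none. Of the endothelial markers found, KDR had one in 7 libraries, CDH5 in 4, TEK in 2, and STAB2 and VWF in none.

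The sites near these genes spanned the range of strength, somewhat below the genome. The strength of a peak is given as the percentile of its fold enrichment in its own list, where 100 is the highest, because fold enrichment is relative to each library's own background. A percentile also depends on how many weak peaks the list holds, and the stiff lists were longer. Of all sites with a peak in all 4 libraries of a day, 25.7% were higher in both stiff libraries and 9.17% lower on day 2, and 24.9% and 14.1% on day 4. The part of list length in this was not tested. The median over the 77 sites of the mean percentile was 34.7, against 43.7 over all sites. Introns held 44 sites, promoters of the 10 genes 14, promoters of other genes 7 and intergenic sequence 12. A promoter peak had its summit within 1 kb of any annotated start of the gene. A peak was found in every library at 24 sites (31.2%, background 32.1% of all sites), and 16 (20.8%, background 15.0%) lacked it only in D2 soft replicate 1.

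**Figure D1:**
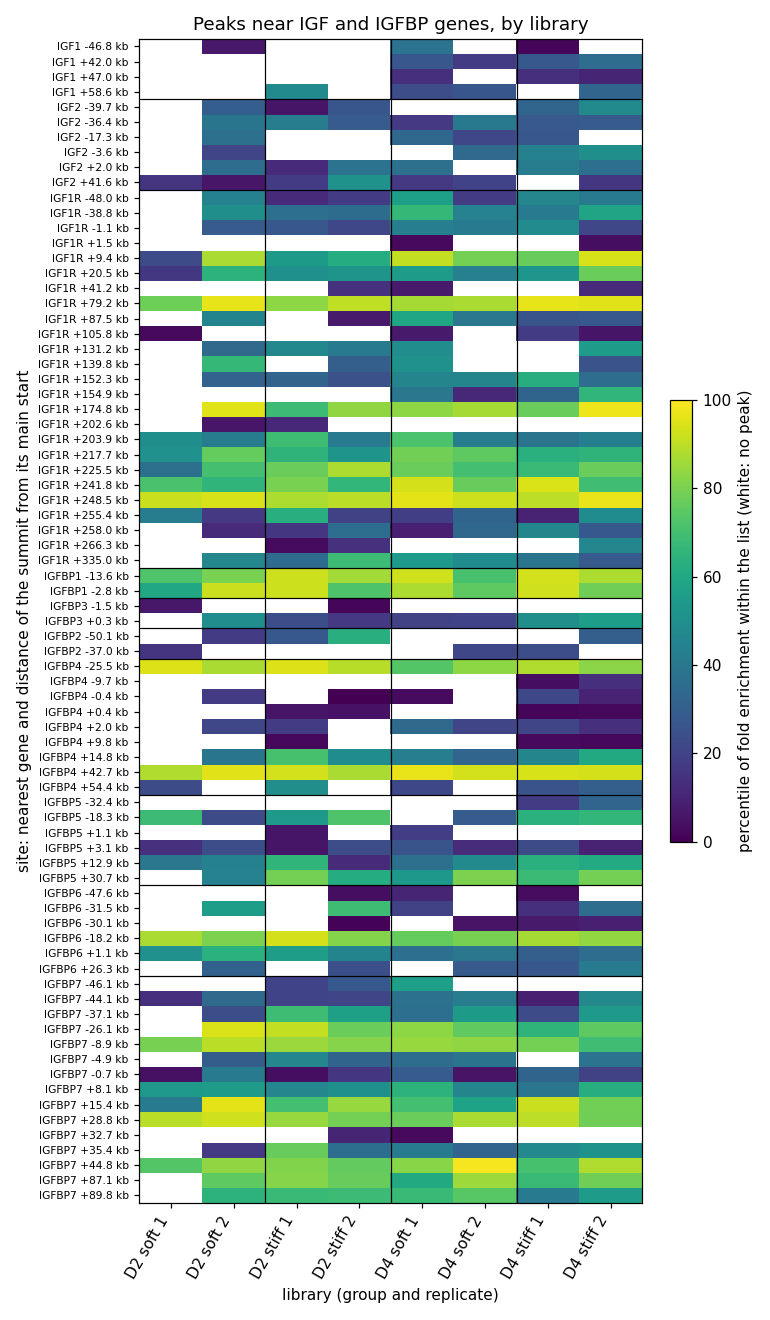
Percentile of fold enrichment within the list (color, white for no peak) at the 77 sites near the IGF and IGFBP genes (rows, by gene and distance from the main start) in the 8 libraries (columns, 2 per group). The brightest rows, such as IGFBP4 +42.7 kb and IGF1R +248.5 kb, were bright in every library, and D2 soft replicate 1 had the most white rows.

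Of the ligand genes, IGF1 had little open chromatin and IGF2 a middling amount. IGF1, the ligand that mediates most growth hormone action, had no promoter peak in any of the 8 libraries, as had 27.7% of protein-coding genes, and a mean of 1.01 peaks per 100 kb, the 13.4th percentile among protein-coding genes. Its 185.9 kb window held 0 and 1 peaks on soft and 1 and 1 on stiff on day 2, and 4 and 2 on soft and 3 and 3 on stiff on day 4. All 4 day 4 libraries had more than all 4 day 2 libraries, which was the case for 1.44% of genes with a peak nearby, and for 1.01% when counted per 10000 peaks of the list, as it also was for IGF1. IGF1 was the 1 gene of the 10 with this pattern. None of the day 4 peaks near IGF1 remained in lists cut to equal length, as described next.

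Of its 4 sites, IGF1 +42.0 kb (chr12:102832076-102832832, an intron of IGF1) had a peak in all 4 day 4 libraries and in no day 2 library. Its summit pileup, the number of overlapping fragments at the summit, reached 9 and 6 on soft and 10 and 13 on stiff on day 4, with percentiles of 27.2, 17.2, 27.4 and 35.9. The 95% Poisson intervals of these pileups ran from 2.20 to 22.2 together, and those of the matrices overlapped. In lists of equal length, cut to the 29789 peaks of lowest p, the site was in 0 libraries. The same held for each of the 4 sites of IGF1. The higher day 4 counts near IGF1 thus rested on peaks that such lists lacked. IGF1 +58.6 kb, the strongest of its sites by mean percentile (32.7), had a peak in D2 stiff replicate 1, both D4 soft libraries and D4 stiff replicate 2.

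IGF2, the fetal growth factor and an imprinted gene, had a mean of 3.38 peaks per 100 kb, the 53.9th percentile among protein-coding genes, and a peak near an annotated start in 6 of 8 libraries. The site IGF2 +2.0 kb (chr11:2158517-2159171) was missing in D2 soft replicate 1 and D4 soft replicate 2. Where it was called, the pileup was 11 in D2 soft replicate 2, 6 and 10 in D2 stiff, 10 in D4 soft replicate 1, and 13 and 11 in D4 stiff, and the percentile was 12.1 to 41.9. No summit lay within 1 kb of the main start. The INS-IGF2 readthrough gene overlaps IGF2, and peaks there cannot be assigned to 1 of them. Both D4 stiff libraries had 6 peaks near IGF2 and both D4 soft libraries 4. On day 2 the counts were 1 and 6 on soft and 4 and 4 on stiff, which overlapped.

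IGF1R, the receptor, had the largest number of sites, 25 in a window of 416.0 kb, and a mean of 4.84 peaks per 100 kb, the 76.3rd percentile among protein-coding genes. Its peaks numbered 10 and 20 on soft and 20 and 23 on stiff on day 2, and 24 and 19 on soft and 20 and 25 on stiff on day 4. Apart from D2 soft replicate 1 all libraries were between 19 and 25, and the groups overlapped on both days.

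The strongest IGF1R promoter peak was not at the main start but at an internal start, IGF1R +248.5 kb (chr15:99439557-99440752). Its percentile was 92.0 and 93.8 on soft and 87.7 and 89.7 on stiff on day 2, and 95.7 and 92.3 on soft and 89.9 and 97.1 on stiff on day 4. It ranked high in every list, and the groups overlapped on day 4. The internal starts at +225.5 kb and +241.8 kb also had a peak in all 8 libraries, with mean percentiles of 70.6 and 77.1. The site at the main start, IGF1R -1.1 kb, had a peak in 7 libraries at percentiles of 21.1 to 48.4, and its summit lay within 1 kb of the start in the D2 stiff libraries alone. Over the genome, 40.3% of genes had a peak at the main start in every library and 33.0% in none. Of the 10 genes, IGFBP7 had one in every library and IGF1, IGF2, IGFBP1, IGFBP2 and IGFBP5 had none.

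**Figure D2:**
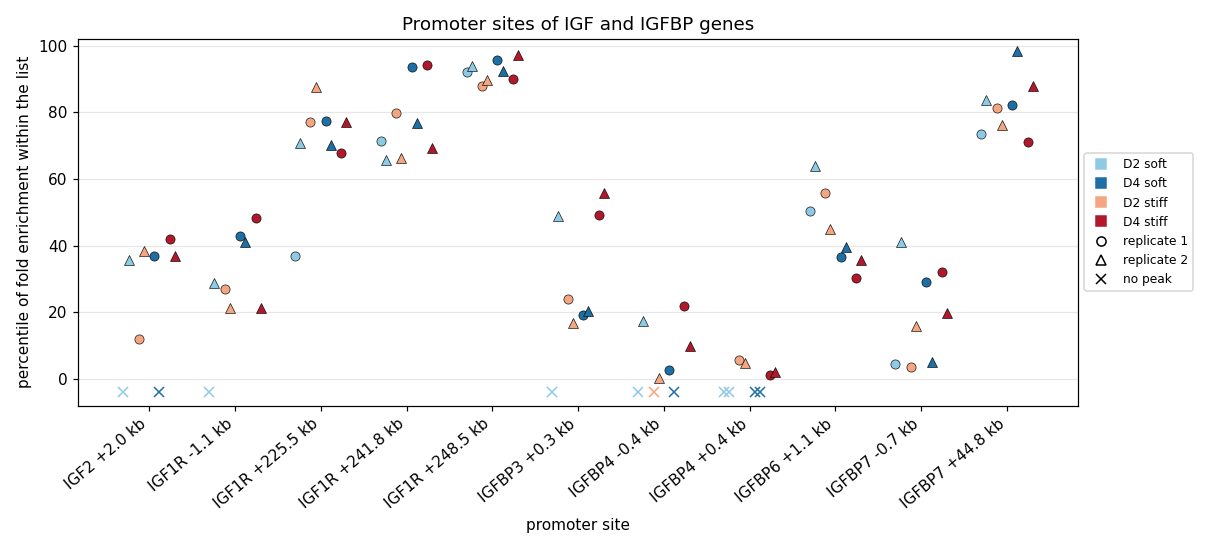
Percentile of fold enrichment within the list at the 11 promoter sites found in at least 4 libraries (each point is 1 library, colors are groups, circles and triangles are replicates 1 and 2, crosses mark no peak). IGF1R +248.5 kb and IGFBP7 +44.8 kb stood highest, and IGFBP3 +0.3 kb was at 49.3 and 55.8 in D4 stiff against 19.2 and 20.2 in D4 soft.

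Within the gene, IGF1R +79.2 kb (chr15:99270516-99271542, intron) was the strongest distal site. Its fold enrichment was 8.13 and 14.0 on soft and 10.9 and 13.0 on stiff on day 2, and 11.3 and 10.6 on soft and 13.8 and 14.4 on stiff on day 4. Both D4 stiff libraries exceeded both D4 soft libraries, at percentiles of 96.3 and 95.5 against 86.5 and 87.3. In the rank fit described further on, the day 4 difference was 0.67 ± 0.48 (SE) normal-score units with an unadjusted p of 0.179 and an adjusted p of 0.946 (limma), and did not pass the threshold. The SE rests on a variance pooled over the 4 groups and moderated over all sites. On day 4 the percentiles within each matrix lay close together, but the D2 soft libraries were at 77.9 and 96.1. Both stiff libraries were higher on day 4 at 24.9% of all sites with a peak in all 4 libraries.

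The intronic site IGF1R +154.9 kb had a peak in all 4 day 4 libraries and in no day 2 library. The pileup reached 17 and 10 on soft and 20 and 28 on stiff on day 4, at percentiles of 39.5, 11.3, 32.2 and 65.7. The matrix groups overlapped on day 4. Sites in at least 4 libraries were also fitted, with the missing peaks of a list tied below all called peaks. Tied peaks took the average of their ranks, so a missing peak scored higher in a list that lacked more sites. The day 4 minus day 2 difference on stiff was then 1.38 ± 0.45 (SE) with an unadjusted p of 0.0089 and an adjusted p of 0.797 (limma over 57377 sites), and on soft 0.47 ± 0.45 with an adjusted p of 0.877. Neither passed the threshold. The same fit gave IGF1 +42.0 kb 0.89 ± 0.42 on stiff with an adjusted p of 0.909. In lists of equal length IGF1R +154.9 kb was in 1 library, of the stiff matrix. Day 4 lists were deeper, and the part of depth in these peaks was not tested.

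**Figure D3:**
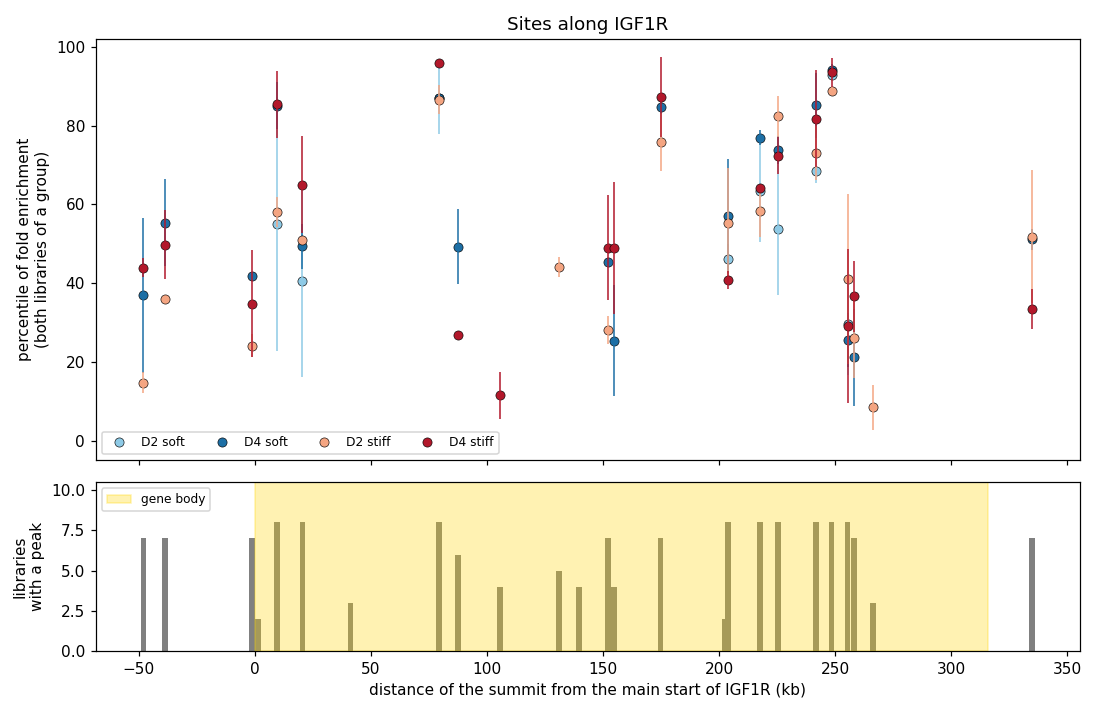
Sites along IGF1R by distance of the summit from the main start in kb. The upper panel gives the percentile of fold enrichment, with points at the mean and lines joining both libraries of a group where both had a peak, and the lower panel the number of libraries with a peak over the gene body (shaded). The strong sites lay at +9.4, +79.2, +174.8 and +217.7 to +248.5 kb, with no group above the others throughout.

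IGFBP1 and IGFBP3 are neighbors on chromosome 7, and all 4 sites near one were also near the other. IGFBP1, the binding protein that hepatocytes release under low insulin, had no promoter peak in any library. The strongest of the shared sites was IGFBP1 -13.6 kb (chr7:45914112-45914839, intergenic), which carried the overlapping AP-1 and TEAD motifs shown above. Its percentile was 72.5 and 80.1 on soft and 92.6 and 86.0 on stiff on day 2, and 92.9 and 71.0 on soft and 93.2 and 87.8 on stiff on day 4. Both stiff libraries were above both soft libraries on day 2, whereas on day 4 the groups overlapped. On day 2 this was so at 3 of the 26 sites near the 10 genes with a peak in all 4 libraries (11.5%, background 25.7% of all such sites). The other strong site, IGFBP1 -2.8 kb, had a peak in every library with a mean percentile of 81.3, and its groups overlapped on both days.

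IGFBP3, the main carrier of IGF in serum, had a peak at its main start (IGFBP3 +0.3 kb, chr7:45960120-45960934) in 7 of 8 libraries. The pileup with its 95% Poisson interval was 17 (9.90 to 27.2) in D2 soft replicate 2. It was 9 (4.12 to 17.1) and 12 (6.20 to 21.0) in D2 stiff. The D4 soft libraries had 11 (5.49 to 19.7) and 9 (4.12 to 17.1), and the D4 stiff libraries 26 (17.0 to 38.1) and 25 (16.2 to 36.9). D2 soft replicate 1 had a peak only near another start, 1.5 kb upstream, with a pileup of 4. The fold enrichment was 7.52 in D2 soft replicate 2, 5.48 and 5.10 on the stiff matrix on day 2, and 4.83 and 4.67 on soft and 7.63 and 8.35 on stiff on day 4.

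The IGFBP3 promoter thus ranked higher on stiff than on soft on day 4, at percentiles of 49.3 and 55.8 against 19.2 and 20.2, and the groups did not overlap. In lists of equal length IGFBP3 +0.3 kb was in 2 libraries, 1 stiff and 1 soft, so presence there did not separate the matrices. On day 2 the 1 soft library with the peak (49.0) was above both stiff libraries (24.0 and 16.7). The rank fit over sites in at least 4 libraries gave a stiff minus soft difference of 0.60 ± 0.42 (SE) on day 4 with an adjusted p of 0.872, -0.48 ± 0.42 on day 2 with an adjusted p of 0.783, and 1.07 ± 0.59 for the difference between the days with an unadjusted p of 0.091 and an adjusted p of 0.963 (limma). None passed the threshold. The missing peak in D2 soft replicate 1 entered the day 2 and between-day differences at the tied score of the shortest list. On day 4, 8 of 44 sites near the 10 genes were higher in both stiff libraries (18.2%, background 24.9%) and 8 were lower in both (18.2%, background 14.1%), so a site of this kind was not unusual.

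**Figure D4:**
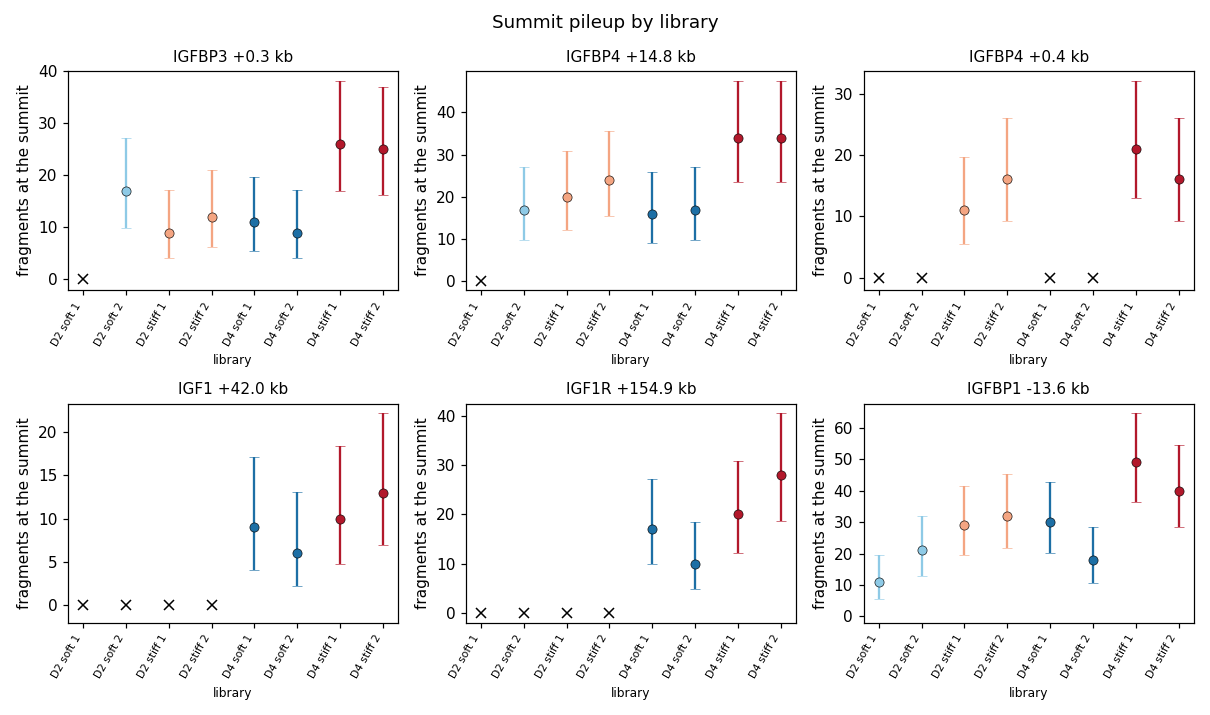
Fragments at the summit in each library with 95% Poisson intervals (counting error only) at 6 sites, colored by group, where a cross marks a library with no called peak and not a pileup of 0. At IGFBP3 +0.3 kb the D4 stiff libraries had 26 and 25 fragments and the D4 soft libraries 11 and 9, and at IGF1 +42.0 kb and IGF1R +154.9 kb no day 2 library had a peak.

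IGFBP2 and IGFBP5 lie next to each other on chromosome 2 and shared 5 sites. IGFBP2, abundant in fetal tissues, had no promoter peak in any library. IGFBP5, which binds extracellular matrix and is made by activated fibroblasts, had a peak near an internal start (IGFBP5 +1.1 kb) in D2 stiff replicate 1 and D4 soft replicate 1 only, with pileups of 9 and 15, and none at its main start. The strongest distal site was IGFBP5 +30.7 kb (chr2:217529328-217529966, intergenic, just past the end of IGFBP2). It was missing in D2 soft replicate 1 and had percentiles of 44.3 in D2 soft replicate 2, 79.1 and 62.0 on the stiff matrix on day 2, and 53.2 and 80.3 on soft and 68.0 and 78.9 on stiff on day 4. The groups overlapped on day 4. Near IGFBP5 the D4 stiff libraries had 5 and 6 peaks and both D4 soft libraries 4, and IGFBP5 -32.4 kb was found in both D4 stiff libraries alone, with pileups of 8 and 9.

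IGFBP4, which mostly holds IGF back from its receptor, had the 1 site of the family that was found on stiff in every library and on soft in none. Its promoter site IGFBP4 +0.4 kb (chr17:38600037-38600840) showed this pattern, as did 0.85% of all sites and 1 of the 77 here (1.30%). The reverse was seen at 0 of the 77 (background 0.0172%). The pileup was 11 and 16 in D2 stiff and 21 and 16 in D4 stiff, over local backgrounds high enough that fold enrichment was 3.99, 3.98, 3.22 and 3.15. The percentiles were 5.56, 4.81, 1.25 and 2.06, so these peaks were close to the lowest that each list held. In lists of equal length the site was in 0 libraries. A second promoter site, IGFBP4 -0.4 kb, had a peak in D2 soft replicate 2 (pileup 16), D2 stiff replicate 2 (12), D4 soft replicate 1 (14) and both D4 stiff libraries (35 and 22). This second site did not separate the matrices. A promoter peak of either kind was thus called in 6 libraries, all 4 stiff and 2 of the 4 soft, and 0 of the 10 genes had one in all 4 stiff and no soft library (background 0.193%).

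A stronger site near the end of the gene, IGFBP4 +14.8 kb (chr17:38613910-38614633, largely past the end of the transcript and annotated as intergenic), was singled out after its values were seen. It was missing in D2 soft replicate 1 and had percentiles of 38.9 in D2 soft replicate 2, 71.0 and 48.8 on the stiff matrix on day 2, and 42.6 and 32.7 on soft and 46.0 and 60.8 on stiff on day 4. Every stiff library was above every soft library. With a missing peak ranked lowest this was so at 2 of 62 sites in at least 4 libraries (3.23%), both near IGFBP4, against a background of 6.12% of such sites, and the reverse at 0 of 62 (background 0.437%). In lists of equal length it had a peak in all 4 stiff libraries and in no soft one, the 1 of 36 sites to do so (2.78%, against 0.279% of all sites in such lists). The rank fit over sites in at least 4 libraries, with the missing peak at its list's tied score, gave a difference over both days of 0.42 ± 0.30 (SE) with an adjusted p of 0.695 (limma).

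Near IGFBP4 there were 3 and 5 peaks on soft and 7 and 5 on stiff on day 2, and 7 and 4 on soft and 9 and 9 on stiff on day 4. The day 4 groups did not overlap and the day 2 groups touched at 5. The site IGFBP4 +9.8 kb was called in 3 stiff and 0 soft libraries, and IGFBP4 -9.7 kb in both D4 stiff libraries only, all at percentiles below 15. The strongest site of the family was IGFBP4 +42.7 kb (chr17:38642136-38643026), which lay in an intron of TNS4, a focal adhesion gene, and had fold enrichments of 9.33 and 13.7 on soft and 13.0 and 12.3 on stiff on day 2, and 14.0 and 11.7 on soft and 13.2 and 13.8 on stiff on day 4. It was near the top of every list, at percentiles of 87.3 to 96.8, and the groups overlapped.

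**Figure D5:**
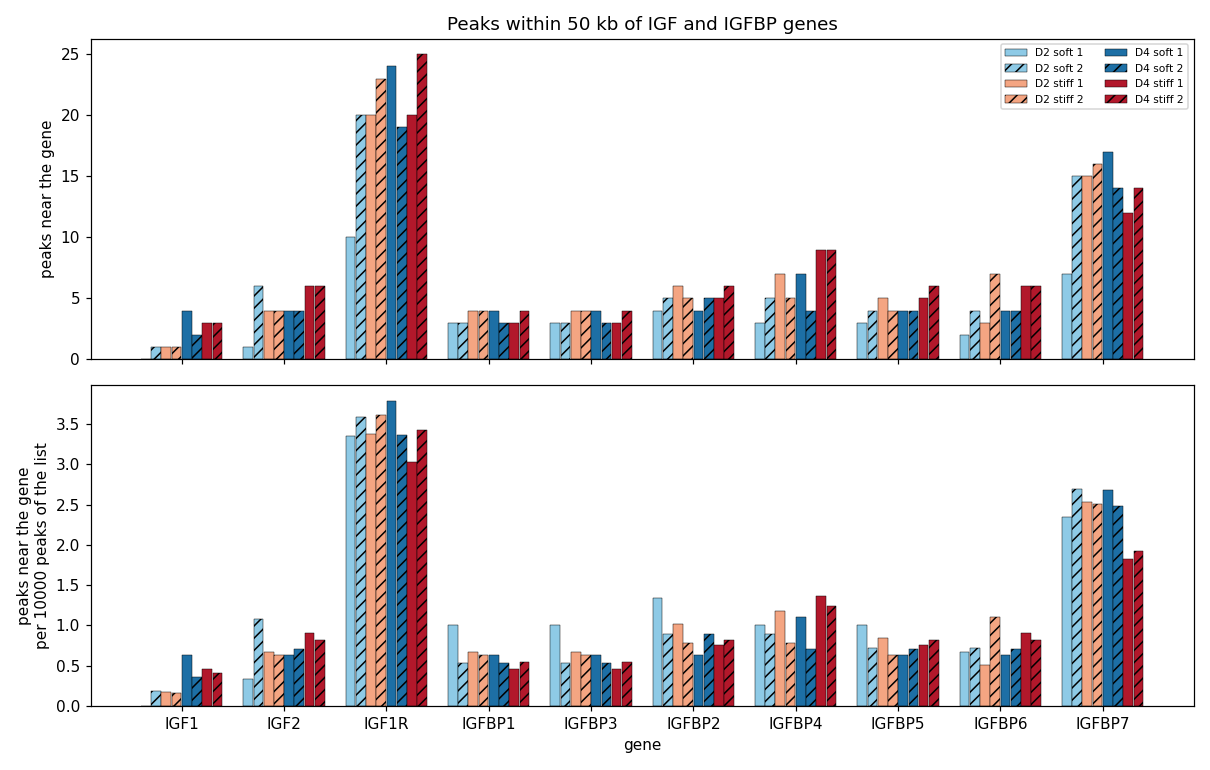
Number of peaks in the gene body and 50 kb around it (upper panel) and the same per 10000 peaks of the list (lower panel) for the 10 genes, with 1 bar per library, colors for groups and hatching for replicate 2. IGFBP4 had 9 peaks in both D4 stiff libraries against 7 and 4 in D4 soft, and IGFBP7 had fewer per 10000 peaks in D4 stiff than in any other group.

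IGFBP6, which prefers IGF2, had a promoter peak in all 8 libraries, at IGFBP6 +1.1 kb (chr12:53491126-53493446). Its percentile of fold enrichment was 50.5 and 63.9 on soft and 55.9 and 45.0 on stiff on day 2, and 36.5 and 39.6 on soft and 30.1 and 35.7 on stiff on day 4. All 4 day 2 libraries were above all 4 day 4 libraries, as at 0.349% of the 57377 sites in at least 4 libraries and at 1 of the 62 here. The opposite order, with a missing peak ranked lowest, was seen at 3 of the 62 (4.84%, background 4.53%), namely IGF1 +42.0 kb, IGF1R +154.9 kb and IGF1R +152.3 kb. On soft alone, 4 of 25 sites were lower in both day 4 libraries (16.0%, background 8.79%) and 3 were higher in both (12.0%, background 26.6%), and on stiff 8 of 44 were lower (18.2%, background 13.4%) and 11 higher (25.0%, background 24.4%). In the rank fit the day 4 minus day 2 difference of IGFBP6 +1.1 kb on soft was -0.98 ± 0.47 (SE) with an unadjusted p of 0.0467 and an adjusted p of 0.697 (limma), which did not pass. By rank of -log10 p instead of fold enrichment the days overlapped, and on day 4 the stiff libraries then stood above the soft ones, the reverse of the order by fold enrichment. The pileup was 17 to 42 on day 2 and 27 to 59 on day 4. Near IGFBP6 both D4 stiff libraries had 6 peaks and both D4 soft libraries 4, while D2 stiff had 3 and 7. The strongest site in the window, IGFBP6 -18.2 kb (mean percentile 83.6), was the promoter of SPRYD3.

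IGFBP7, a secreted protein of low IGF affinity found in basement membrane and vessel walls, had the densest open chromatin of the family at 7.66 peaks per 100 kb, the 95.2nd percentile among protein-coding genes. Peaks numbered 7 and 15 on soft and 15 and 16 on stiff on day 2, and 17 and 14 on soft and 12 and 14 on stiff on day 4. Per 10000 peaks, D4 stiff (1.82 and 1.92) was below D4 soft (2.69 and 2.48), as for 24.3% of genes. The peak at its main start, IGFBP7 -0.7 kb, was present in all 8 libraries but weak, with percentiles of 4.46 and 40.9 on soft and 3.53 and 16.0 on stiff on day 2, and 29.2 and 5.20 on soft and 32.2 and 19.9 on stiff on day 4. Replicates differed as much as groups.

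Further into IGFBP7 the strength varied, with mean percentiles of 84.8 at +28.8 kb, 81.7 at +44.8 kb and 73.8 at +15.4 kb, but 52.1 at +8.1 kb, 43.3 at +35.4 kb and 6.32 at +32.7 kb. At the internal start IGFBP7 +44.8 kb (chr4:57931009-57932559) the percentile was 73.4 and 83.5 on soft and 81.1 and 76.1 on stiff on day 2, and 82.3 and 98.5 on soft and 71.0 and 88.0 on stiff on day 4. The intronic site IGFBP7 +28.8 kb (chr4:57947162-57948134), with 2 TEAD motifs in its window, had 89.5 and 92.7 on soft and 84.5 and 79.0 on stiff on day 2, and 77.3 and 87.4 on soft and 89.9 and 78.4 on stiff on day 4. On day 2 both soft libraries were above both stiff libraries at this site, one of 3 of the 26 (11.5%, background 9.17%). IGFBP7 -8.9 kb, in an intron of IGFBP7-AS1, also had a peak in every library, with a mean percentile of 81.5. On day 4 both stiff libraries (79.2 and 69.2) were below both soft libraries (84.7 and 83.5) there.

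By presence in the lists, 3 of the 77 sites were found in both D2 stiff and neither D2 soft library (3.90%, background 7.45%) and 0 the other way (background 0.391%). They were IGFBP4 +0.4 kb, IGF1R +266.3 kb and IGFBP7 -46.1 kb. On day 4, 5 were found on stiff alone (6.49%, background 6.72%) and 0 on soft alone (background 1.31%). These were IGFBP4 -9.7, +0.4 and +9.8 kb, IGFBP5 -32.4 kb and IGF2 -39.7 kb. Comparisons of 2 against 2 libraries cannot pass 0.05 by permutation, and no share here stood above that of the genome.

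Between the days, 3 sites were found on soft on day 4 alone (3.90%, background 5.79%) and 0 on day 2 alone (background 0.403%). On stiff, 7 were found on day 4 alone (9.09%, background 5.35%) and 1, IGFBP7 -46.1 kb, on day 2 alone (1.30%, background 1.41%). The 2 sites with a peak in all day 4 and no day 2 library were IGF1 +42.0 kb and IGF1R +154.9 kb (2.60%, background 0.437%), and 0 sites had the reverse (background 0.00927%). In peak counts per gene, 2 of the 10 genes were higher in both D2 stiff than in both D2 soft libraries (IGFBP1 and IGFBP3, which share their sites, background 28.7%) and 0 of them per 10000 peaks (background 14.3%). On day 4, 4 were higher (IGFBP4, IGFBP5, IGFBP6 and IGF2, background 24.4%), and the same 4 per 10000 peaks (background 16.5%). None of the 10 was lower in both stiff libraries on day 2 (background 0.232%) or day 4 (background 2.29%), or higher in all 4 stiff than in all 4 soft libraries (background 5.26%). Per 10000 peaks, 0 were lower in both stiff libraries on day 2 (background 21.0%) and 1, IGFBP7, on day 4 (background 24.3%).

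Signal was compared between groups at the 24 sites that every library had, by turning the within-library ranks of fold enrichment into normal scores and fitting 4 group means with limma over all 24246 such sites. None of the 24 passed an adjusted p of 0.05 in any of 6 contrasts, where 1 of all sites passed for stiff against soft on day 2 (0.00412%), 2 on day 4 (0.00825%), 2 over both days (0.00825%), and 0 for either change between days or for the interaction. At an unadjusted p under 0.05, 0 of the 24 differed by matrix on either day (background 7.65% on day 2 and 5.35% on day 4), and 1, IGFBP6 +1.1 kb, changed between days on soft (background 7.07%). On day 2 the median stiff minus soft difference was -0.32 over the 24 sites, 5 higher and 19 lower (79.2% lower), against -0.02 and 51.5% lower over all sites. With 1 day 2 library dropped, this median ran from -0.44 to -0.19. The -0.44 came when D2 soft replicate 1 was dropped (7 higher, 17 lower). The -0.19 came when D2 stiff replicate 2 was dropped (10 higher, 14 lower). Dropping the other D2 soft library gave -0.31 (6 higher, 18 lower), and dropping the other D2 stiff library -0.42 (4 higher, 20 lower). Of the 24 sites, 9 lay near IGF1R and 7 near IGFBP7, so these counts rest largely on 2 genes. On day 4 the median was -0.07, 10 higher and 14 lower (58.3% lower), against -0.02 and 51.5% lower over all sites. Leaving out 1 day 4 library moved it between -0.23 (without D4 soft replicate 2) and 0.03 (without D4 stiff replicate 1), and it was -0.01 without D4 soft replicate 1 and -0.10 without D4 stiff replicate 2.

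With sites in at least 4 libraries fitted and missing peaks tied below all called peaks, 0 of 62 sites near the 10 genes passed an adjusted p of 0.05 by matrix (limma), where 1 of all 57377 sites passed on day 2 (0.00174%), 0 on day 4 (0.0%) and 1 over both days (0.00174%). The tied score was higher the more sites a list lacked, so differences at sites with missing peaks also carry list length. IGFBP4 +0.4 kb, called in every stiff and no soft library, thus had a difference of -0.11 ± 0.30 (SE) over both days. At an unadjusted p under 0.05, 3 of the 62 were lower on stiff on day 2 (background 7.71% in either direction), 2 were higher on stiff on day 4 (background 6.46%) and 2 were lower on stiff over both days (background 8.8%). The pair over both days, IGF1R +87.5 kb and IGF2 -17.3 kb, was also lower on day 2, together with IGFBP7 -0.7 kb. IGF1R +87.5 kb, an intronic site, differed by -0.92 ± 0.29 (SE) over both days, with an unadjusted p of 0.00716 and an adjusted p of 0.391. It was missing in D2 soft replicate 1 and D2 stiff replicate 1, with percentiles of 45.3, 58.8 and 39.8 in the other soft libraries against 7.05, 25.8 and 27.7 in the other stiff libraries. The missing peak scored higher in D2 soft replicate 1, whose list was shorter (29789 against 59277 peaks), which added to the negative difference. IGF2 -17.3 kb, in an intron shared with INS-IGF2, differed by -0.998 ± 0.33 with an unadjusted p of 0.00888 and an adjusted p of 0.408. It was found in 3 soft libraries, at percentiles of 36.9, 33.3 and 21.1, and in D4 stiff replicate 1 at 27.3. On day 4 the higher sites were IGF2 -39.7 kb, found in all 4 stiff libraries and in D2 soft replicate 2, with a difference of 1.001 ± 0.40 and an adjusted p of 0.722, and IGFBP5 -18.3 kb, with 1.23 ± 0.54 and an adjusted p of 0.764. These sites were singled out after their values were seen.

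Among the 24 sites in every library, the lowest unadjusted p for stiff against soft belonged to IGFBP7 on both days. On day 2 the difference was -0.89 ± 0.53 (SE) at IGFBP7 -0.7 kb, with an unadjusted p of 0.103 and an adjusted p of 0.711 (limma), and -0.74 ± 0.48 at IGFBP7 +28.8 kb, with an unadjusted p of 0.136 and an adjusted p of 0.747. On day 4 it was -0.91 ± 0.52 at IGFBP7 +44.8 kb, with an unadjusted p of 0.0901 and an adjusted p of 0.942 (limma), and 0.83 ± 0.55 at IGFBP7 +15.4 kb, with an unadjusted p of 0.140 and an adjusted p of 0.943.

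Of 41 other genes of the pathway 20 had a promoter peak in every library, 15 in some and 6 in none, where 46.0% of protein-coding genes had one in every library and 27.7% in none. INS, the carrier genes IGFALS and IGFBPL1, the IGFBP-cleaving proteases PAPPA and PAPPA2, and the adaptor GRB14 had none. HTRA1, a protease that can cleave IGFBPs, had a promoter peak in both D4 stiff libraries and D4 soft replicate 2 but in no day 2 library. AKT1 had one in both D4 stiff libraries, in D2 stiff replicate 1 and in no soft library. INSRR had one in both D2 stiff libraries and D4 soft replicate 1, and PDPK1 in all libraries but those of D2 soft. In all, 2 of the 41 (INSRR and PDPK1) had one in both D2 stiff and neither D2 soft library, as had 1.45% of protein-coding genes, and 1 (AKT1) in both D4 stiff and neither D4 soft library, as had 1.53%. The reverse was seen for 0 on either day. Of the 24 promoter sites of 20 of these genes in the rank fit, 0 passed in any contrast (limma), with 13 of 144 unadjusted p under 0.05 over the 6 contrasts (9.03%, against 6.35% over all sites).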

How the data were processed

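The 8 peak lists, 1 per library, came from the authors' ATAC-seq reads of LX-2 cells, trimmed with TrimGalore, mapped to hg19 with Bowtie2 and passed to MACS2 at a q-value up to 0.05. Picard and bedtools 2.24.0 were also named, with Bowtie2 2.4.1, in the submitters' processing notes. Options, read filters and Tn5 offsets are not given in the sources used here, and replicates were called apart. Replicate numbers follow the labels, while the peak names in 5 of the 8 lists carry another number, which no fit used. The deposited fold enrichment is the ratio of the summit pileup to its library's own local background. The deposited −log10 p and q columns refer to that background, and the score deposited by the authors was not used. The other deposited column read was the summit's offset from the peak start.

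Peaks overlapping by at least 1 bp were merged. Summit pileups were recovered from fold enrichment and p under the MACS2 model (pseudocount 1), and gave back the −log10 p within 0.001 for 100% of peaks. Pileup intervals (95%, exact Poisson) cover counting error only. Depth was the lowest background over the shortest peak and compares libraries only. Genes came from GENCODE 44 on GRCh37. Ranks were fitted with limma 3.58.1 in R 4.3.3, with Benjamini-Hochberg adjustment. The fit was also run on simulated counts without missing peaks. Its outcome is not given here, so that run does not show what the fit can find in these lists. No count test was possible, since the study's differential test needs reads. Members, gene lists, motifs and tests were chosen with earlier results of these data known. Sites described singly were each gene's strongest promoter and distal site, those split wholly by matrix, and the 2 with the lowest p per day. IGFBP4 +14.8 kb and the day 4 sites were added after their values were seen. Alternatives were lists of equal length, q up to 0.01, presence in 1 replicate, an overlap of 100 bp, a flank of 20 kb, promoters within 500 bp or 2 kb, ranks of −log10 p, quantile-normalized log2 fold enrichment, libraries of 1 day, sites in at least 4 libraries, a replicate block and each library left out. RefSeq promoter sequences on another build were not used here. The sequence of 1 site is not reported here.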

Additional observations from a re-analysis of the deposited data

Results flagged for a closer look

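For the peak counts of the 10 genes and the percentiles of the 24 sites that every library had, the 4 soft and the 4 stiff libraries were each searched for 1 library far from the other 3. Of 68 such groups 12 held one, where chance gives about 1 in 20, but counts of a few peaks with ties meet the criterion easily. D2 soft replicate 1 had 3 peaks near IGFBP5 against 4 in each of the other soft libraries, and 2 near IGFBP6 against 4. D4 soft replicate 1 had 4 peaks near IGFBP1 and IGFBP3, which share their sites, against 3, and D4 stiff replicate 1 had 3 against 4 in the other stiff libraries.

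Among the percentiles, IGF1R +217.7 kb was at 50.4 in D2 soft replicate 1 against 75.0 to 78.8 in the other soft libraries, and at 51.7 in D2 stiff replicate 2 against 63.4 to 65.0 in the other stiff ones. IGF1R +20.5 kb was at 77.3 in D4 stiff replicate 2 against 50.4 to 52.7. IGF1R +203.9 kb was at 69.1 in D2 stiff replicate 1 against 38.6 to 43.1. IGFBP4 +42.7 kb was at 87.3 in D2 stiff replicate 2 against 93.2 to 94.1. IGFBP5 +12.9 kb was at 12.2 in D2 stiff replicate 2 against 61.2 to 65.4, the widest gap. At none of the 24 were the matrices separated in opposite directions on day 2 and day 4.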

How the results depend on the processing

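Counts of sites by presence moved with the lists. In this section shares of all sites are given for lists of equal length alone. The other counts are thus not read as particular to the 10 genes. With lists of equal length 36 sites were left near the 10 genes. Of these, 3 were in D2 soft only (8.33%, against 3.24% of all sites) and 2 in D2 stiff only (5.56%, against 4.06%). On day 4, 1 was in D4 stiff only (2.78%, against 3.0%) and 0 in D4 soft only (background 2.81%). In day 4 only there were 0 on soft (background 3.16%) and 0 on stiff (background 2.75%). In day 2 only there were 1 on soft (2.78%, against 2.7%) and 0 on stiff (background 2.59%). Libraries with a promoter peak then fell from 6 to 0 for IGFBP4 and IGF2, from 8 to 3 for IGFBP3 and from 2 to 0 for IGFBP5. The matching change over all genes is not given here. With a peak in at least 1 replicate the counts were 10 in D2 stiff only, 5 in D2 soft only, 3 in D4 soft only, 11 and 11 in day 4 only and 4 and 5 in day 2 only on soft and stiff. A flank of 20 kb gave 3 sites in D4 stiff only and 0 on stiff in day 2 only. With promoters within 500 bp, 2 genes in place of 4 had a promoter peak in every library. A q up to 0.01 and an overlap of 100 bp moved none of these counts by over 1.5 times.

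Leaving out each library in turn gave 3 to 24 sites in D2 stiff only, 0 to 3 in D2 soft only, 2 to 11 in D4 stiff only, 0 to 3 in D4 soft only, 3 to 23 on soft and 6 to 12 on stiff in day 4 only, 0 to 3 on soft and 1 to 6 on stiff in day 2 only, 73 to 77 sites in all, 24 to 40 in every library and 4 to 4 genes with a promoter peak in every library. The values 24 and 23 came without D2 soft replicate 2, which left the shallow library alone in its group, and 40 without D2 soft replicate 1. The 11 came without D4 soft replicate 1, the 12 without D2 stiff replicate 2, and the 2 and 6 without D4 stiff replicate 2.

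In the rank fit, 0 sites near the 10 genes passed under any alternative (0 to 0 without 1 library), although calls over all sites on day 2 rose from 1 to 359 without D2 soft replicate 2. By the labelled replicate numbers, the correlations of replicate differences between groups were -0.04 to 0.08. In 5 lists the peak names carry another number, and pairing by that number was not tried, so these values cannot show whether libraries were paired. With the replicate block 0 sites near the 10 genes passed, and over all sites 1 on day 2 and 2 on day 4, as without it. The 5 differences followed were the 2 of lowest p for stiff against soft on each day and that of IGFBP6 +1.1 kb between days on soft. They kept their direction under every alternative that was fitted. These refits used the libraries from which the differences were picked, or subsets of them, so a kept direction is no added support. The size varied, for IGFBP7 +44.8 kb on day 4 from -1.67 to -0.16. Other differences between days of low p were not followed in this way. D2 soft replicate 1 had the fewest peaks and the lowest estimated depth.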
